A study of Mus musculus with 5 samples.

Results

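The genes described here carry the response of kidney medulla cells to hypertonicity: the transcription factor gene Nfat5, the transporter genes Slc6a12, Slc5a3, Slc6a6 and Slc38a2, the aldose reductase gene Akr1b3 and the chaperone gene Cryab. They were found on the arrays by the gene name that the files give each probe, or by the current symbol of its accession, and 21 of 41174 non-control probes belonged to the 7 genes, of 20281 named genes on the array. Nfat5 had 7 probes, Slc38a2 had 4, Akr1b3 had 3, Slc5a3, Slc6a6 and Cryab had 2 each, and Slc6a12 had 1. The question of the comparison was which transcripts set apart papilla cells that keep a nuclear label from fetal life.

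The cells came from the kidney papilla, the tip of the inner medulla, of H2B-GFP mice aged 2 to 3 months. The sample titles call all of them control. All animals carried the histone H2B-GFP fusion and had been given doxycycline before birth, so that cells which divided little afterwards stayed green. The labels name no promoter for the fusion. Live cells freed with collagenase were sorted as green (GFP+) or not green (GFP-), and both populations can hold several papillary cell types. The 5 biological replicates gave 5 two-colour Agilent arrays, each with the amplified cDNA of both populations of 1 replicate.

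Cells of the papilla live in a fluid of very high and changing salt and urea content. They balance it by storing small organic osmolytes, chiefly sorbitol, myo-inositol, betaine, taurine and glycerophosphocholine, which do not disturb proteins. NFAT5, also called TonEBP or OREBP, enters the nucleus when tonicity rises and binds tonicity elements (TonE) in the regulatory DNA of the transporter, enzyme and chaperone genes of this response.

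The betaine transporter gene is a classic NFAT5 target, so the start of Slc6a12 was examined for the element and is shown beside that of Slc5a3, the other member whose transporter takes up a major medullary osmolyte from outside and for which a sequence was at hand. Both are RefSeq windows of build GRCm38.p6, from 250 bases before to 50 bases after the annotated start, read 5′ to 3′ on the plus strand. The Slc6a12 window is that of the first of several annotated starts and lies at chr6:121342324-121342623. The Slc5a3 window lies at chr16:92058072-92058371. Capitals mark a match to the TonE consensus.
Slc6a12: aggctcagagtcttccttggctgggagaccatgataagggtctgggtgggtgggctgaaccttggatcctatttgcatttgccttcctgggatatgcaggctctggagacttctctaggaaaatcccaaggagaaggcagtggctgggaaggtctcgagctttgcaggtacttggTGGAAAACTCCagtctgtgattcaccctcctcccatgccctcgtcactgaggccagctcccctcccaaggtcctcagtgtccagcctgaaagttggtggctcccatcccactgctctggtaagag
Slc5a3: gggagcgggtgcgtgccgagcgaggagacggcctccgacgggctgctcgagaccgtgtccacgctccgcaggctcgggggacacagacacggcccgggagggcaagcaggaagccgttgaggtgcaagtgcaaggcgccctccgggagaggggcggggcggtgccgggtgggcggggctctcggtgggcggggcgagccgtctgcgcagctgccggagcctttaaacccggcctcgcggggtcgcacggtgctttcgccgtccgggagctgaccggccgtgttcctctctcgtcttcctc

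The match, TGGAAAACTCC, begins 75 bases before this first annotated Slc6a12 start. Windows were at hand for 4 of the 7 genes (Slc6a12, Slc5a3, Nfat5 and Slc38a2), 8 windows in all. The printed Slc6a12 window was the only one that held the element, and the windows of the other Slc6a12 starts held none. Both strands were searched for the consensus by name and for its core TGGAAA, with which it overlaps by construction. Of 32851 mouse windows of the same length, 4.96% held the consensus and 21.4% the core, so a match is a description and no evidence of binding.

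Every ratio below is the log2 of the second deposited intensity over the first. It is read as GFP+ over GFP-, a likely direction that rests on the Cy5 label of the GFP+ cDNA and the usual order of Agilent ratios. All signs turn if the dyes lay the other way. A probe counted as above background from 3 times the negative control probe upward, within the same array and channel. Of the 21 probes, 19 were so on 3 or more of the 5 arrays in either channel and were tested with limma among 29814 probes, and 13 of these 19 were above background in both channels on all 5 arrays.

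In the members' own ratios replicate 1 stood apart from the other 4 arrays, and their main results are therefore given with and without it. That choice rests on the same values that are tested, so every figure without replicate 1 is a description. On replicate 1, 18 of the 19 tested probes lay below 0, with a median of -2.44, where 55.9% of all tested probes did. On replicates 2, 3, 4 and 5 the counts above 0 were 12, 13, 12 and 15 of 19, with medians of 1.16, 1.15, 1.56 and 1.53. Medians over all tested probes were -0.25 on replicate 1 and 0.34, -0.03, 0.41 and 0.41 on replicates 2 to 5.

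None of the 19 probes differed between the GFP+ and GFP- channels past the threshold. The call rate over all tested probes was 0% at an adjusted p of 0.05 in limma, and the member probes had adjusted p from 0.812 to 0.999. An unadjusted p under 0.05 was found for 1 of 19, on the higher side, against 6.01% of all probes and 4.43% on that side. Without replicate 1 limma again called 0 of 19, the call rate over all probes was again 0%, and the lowest adjusted p of a member was 0.235. An unadjusted p under 0.05 was then found for 6 of 19, all with means above 0, against 15.6% of all probes and 10.1% on that side. Those 6 belonged to Nfat5 (2 probes), Slc5a3, Slc6a6, Cryab and Slc38a2. Means above 0 were found for 13 of 19 probes, beside 55.4% of all probes, and for 15 of 19 without replicate 1, beside 57.5%. The exact sign-flip permutation test over 5 arrays cannot go below p = 0.0625, two-sided.

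Only 1 probe of the 19 lay above 0 on all 5 arrays, a share near the 4.96% of all probes that did, and 0 lay below 0 on all 5, against 2.92%. The combination of a value below 0 on replicate 1 and above 0 on replicates 2 to 5 was found for 5 of 19, against 11.7% of all probes. Replicates 2 to 5 were all above 0 for 6 of 19, against 16.7%, and all below 0 for 0 of 19, against 10.6%. The GFP+ and GFP- intensities overlapped for all 21 probes, while they lay fully apart, with GFP+ above, for 0.413% of all tested probes and, with GFP+ below, for 0.215%. The member probes varied more over the arrays than most, with a median SD of 2.14 against 1.70 over all tested probes.

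**Figure D1:**
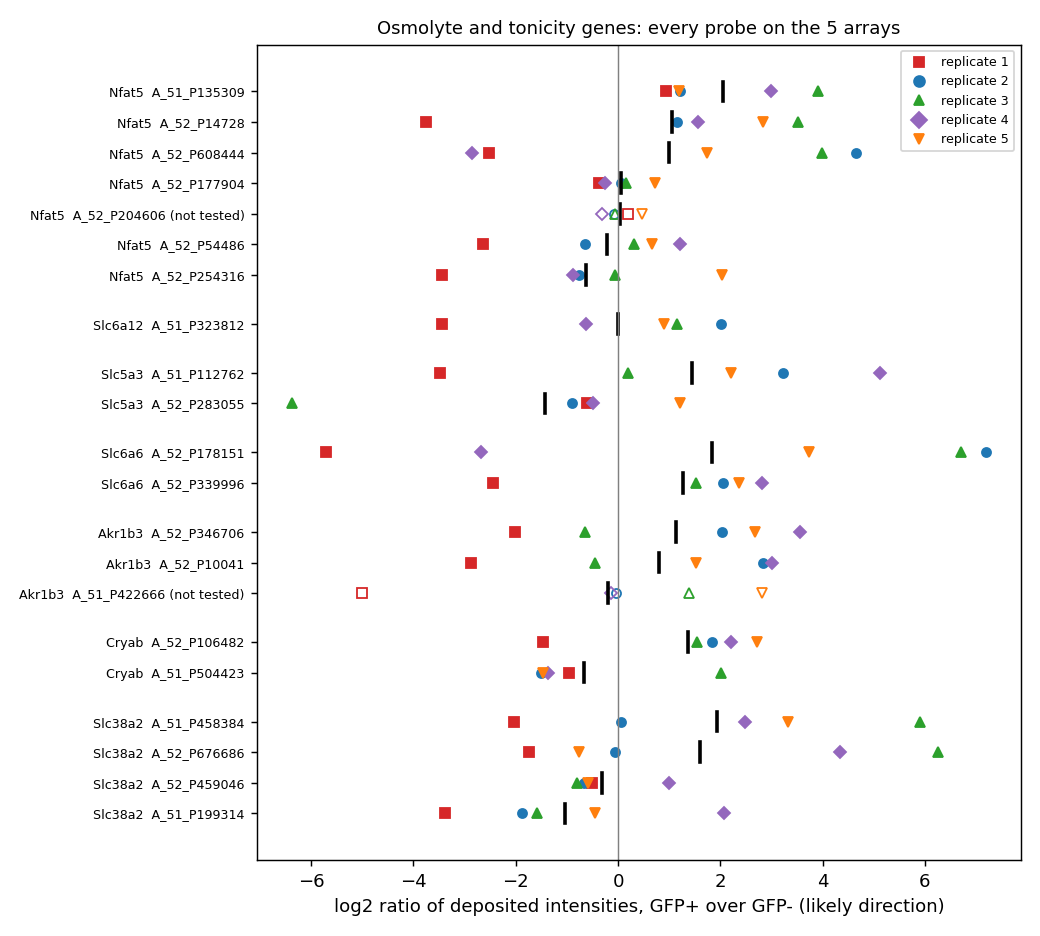
Log2 ratio of GFP+ over GFP- (x axis, likely direction) of all 21 probes, grouped by gene, with 1 symbol per replicate and a black bar at the mean. Open symbols are the 2 probes not tested. The red squares of replicate 1 lie below 0 for 18 of the 19 tested probes, and the other replicates lie on both sides of 0.

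Nfat5, the factor itself, had 6 tested probes that did not move as one. Its brightest probe, A_52_P608444, had GFP- intensities of 57086, 3225, 5318, 175953 and 5374 on replicates 1 to 5. The GFP+ intensities were 9976, 81442, 84811, 24287 and 18005. The groups overlapped: the GFP- channel was the brighter on replicates 1 and 4 and the dimmer on the other 3. The log2 ratio was 1.00 ± 3.54 (SD, n = 5; limma adjusted p 0.876), and 1.89 ± 3.40 (SD, n = 4; adjusted p 0.491) without replicate 1. Without replicate 2 it was 0.092 and without replicate 3 it was 0.26.

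A second Nfat5 probe, A_51_P135309, was the member probe above 0 on all 5 arrays. Its GFP- intensities were 3622, 257, 2629.7, 1877 and 5069.9 and its GFP+ intensities 6920.2, 599, 39362, 14871 and 11514. Within each array GFP+ was higher, by log2 ratios of 0.93, 1.22, 3.90, 2.99 and 1.18, though the ranges of the groups overlapped. The mean was 2.05 ± 1.32 (SD, n = 5; limma adjusted p 0.812), and 2.32 ± 1.35 (SD, n = 4; adjusted p 0.254) without replicate 1. A further probe, A_52_P14728, designed on a cDNA clone, had -3.76 on replicate 1 and 1.16, 3.52, 1.56 and 2.83 on the others.

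The remaining Nfat5 probes showed no common direction. A_52_P254316 had -0.62 ± 1.96 and A_52_P54486 -0.22 ± 1.51 (SD, n = 5), and both turned without replicate 1, to 0.08 and 0.39. A_52_P54486 was above background on 3 of 5 arrays in each channel, and among replicates 2 to 5 in both channels on replicate 5 only. A_52_P177904 had 0.06 ± 0.43 (SD, n = 5) and was also above background on 3 of 5 arrays in each channel. A_52_P204606, designed on an expressed sequence tag, was above background on no array and gave no measurement of Nfat5.

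Slc6a12 encodes the betaine transporter BGT1, whose window with the TonE match is printed above. Its only probe, A_51_P323812, had GFP- intensities of 10275, 94.2, 4707, 1352 and 485 on replicates 1 to 5. The GFP+ intensities were 949.8, 382, 10410.0, 880.3 and 903. GFP- was the brighter channel on replicates 1 and 4, and the groups overlapped widely. The log2 ratios of -3.44, 2.02, 1.15, -0.62 and 0.90 gave a mean of 0.00 ± 2.14 (SD, n = 5; limma adjusted p 0.999). Without replicate 1 the mean was 0.86 ± 1.10 (SD, n = 4; adjusted p 0.505).

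Slc5a3 encodes SMIT1, which carries myo-inositol into the cell with sodium. Its probes opposed each other. The RefSeq probe A_51_P112762 had GFP- intensities of 16520.1, 61.0, 68.4, 114 and 2009 and GFP+ intensities of 1475, 568, 78.0, 3976 and 9278. Its GFP- channel was at or near background on replicates 2 to 4 and its GFP+ channel on replicate 3, so that these ratios rest on dim signals. The log2 ratio was -3.49 on replicate 1 and 3.22, 0.19, 5.13 and 2.21 on the others, with a mean of 1.45 ± 3.28 (SD, n = 5; limma adjusted p 0.828) and 2.69 ± 2.06 (SD, n = 4; adjusted p 0.271) without replicate 1.

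The brighter Slc5a3 probe, A_52_P283055, was designed on a cDNA clone and is named BF642829 in the files, an older name of Slc5a3. It had GFP- intensities of 56993, 52966, 263676, 17879 and 2904 and GFP+ intensities of 37496, 28567, 3175, 12682 and 6763. On replicate 3 its log2 ratio was -6.38, while the RefSeq probe stood at 0.19 there. The mean was -1.43 ± 2.89 (SD, n = 5; limma adjusted p 0.822), and -1.64 ± 3.29 (SD, n = 4; adjusted p 0.535) without replicate 1. Without replicate 3 it was -0.19. In the RefSeq annotation Slc5a3 overlaps Mrps6, a mitochondrial ribosomal protein gene, whose ratio was -1.17 ± 3.65 (SD, n = 5), with -6.63 on replicate 2 and 3.36 on replicate 3.

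Slc6a6 encodes TauT, the taurine transporter, and held the widest swings of all 7 genes. The brighter probe, A_52_P178151, had GFP- intensities of 65355, 1186, 1286, 318 and 277. The GFP+ intensities were 1242, 172967, 133781, 49.7 and 3676. GFP+ was far brighter on replicates 2 and 3, with log2 ratios of 7.19 and 6.70, GFP- on replicate 1, with -5.72, and GFP+ was not above background on replicate 4. The mean log2 ratio was 1.84 ± 5.77 (SD, n = 5; limma adjusted p 0.853), and 3.74 ± 4.54 (SD, n = 4; adjusted p 0.347) without replicate 1. It was 0.51 without replicate 2 and 0.63 without replicate 3.

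The second Slc6a6 probe, A_52_P339996, had a smaller SD. Its log2 ratios were -2.44 on replicate 1 and 2.06, 1.53, 2.82 and 2.37 on replicates 2 to 5. On replicate 4 its GFP- intensity of 59.1 was not above background, so the 2.82 there is a ratio against background and enters the means and SDs as such. The mean was 1.27 ± 2.13 (SD, n = 5; limma adjusted p 0.815), and 2.19 ± 0.54 (SD, n = 4; adjusted p 0.235) without replicate 1. On replicate 4 the probes of Slc6a6 had opposite signs, -2.68 and 2.82, and each of these ratios had 1 channel that was not above background.

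Akr1b3 encodes aldose reductase, which makes sorbitol from glucose, and its RefSeq probes were the pair that agreed most closely. Probe A_52_P346706 had GFP- intensities of 169068, 61778, 453982, 2383 and 3740.4 and GFP+ intensities of 42030.3, 252130.1, 291796, 28204 and 24061. GFP+ was brighter on replicates 2, 4 and 5 and dimmer on replicates 1 and 3, and the groups overlapped. Its log2 ratios were -2.01, 2.03, -0.64, 3.57 and 2.69, and those of A_52_P10041 were -2.88, 2.83, -0.45, 3.01 and 1.53, with the same sign on all 5 arrays.

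The means of these probes were 1.13 ± 2.35 and 0.81 ± 2.48 (SD, n = 5; limma adjusted p 0.828 and 0.869). Without replicate 1 they were 1.91 ± 1.81 and 1.73 ± 1.60 (SD, n = 4; adjusted p 0.328 and 0.334). The remaining probe, A_51_P422666, on a cDNA clone, was above background on 2 of 5 arrays per channel and was not tested. It had -5.00 on replicate 1 and 2.81 on replicate 5, the arrays where it was above background in both channels. Of the related aldo-keto reductase genes, Akr1b10 had 0.99 ± 0.78, Akr1b8 had 1.00 ± 1.67 and Akr1b7 had 0.19 ± 0.92 (SD, n = 5; lowest limma adjusted p 0.810). The Akr1b7 probe was above background on only 1 of 5 arrays in GFP- and 2 of 5 in GFP+, so most of its ratios rest on background. Akr1b10 lay above 0 on all 5 arrays, as 4.81% of all genes did. Cross-hybridisation between these paralogs was not tested.

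Cryab encodes alpha-B-crystallin, a small heat shock protein that is abundant in the inner medulla. Probe A_52_P106482 had GFP- intensities of 239698, 150119.7, 214038, 73004 and 7567 and GFP+ intensities of 87136, 534018, 620065, 336373 and 49484. It was brighter in GFP+ on replicates 2 to 5 and dimmer on replicate 1, and the groups overlapped. The log2 ratios of -1.46, 1.83, 1.53, 2.20 and 2.71 gave a mean of 1.36 ± 1.64 (SD, n = 5; limma adjusted p 0.812). Without replicate 1 the mean was 2.07 ± 0.51 (SD, n = 4; adjusted p 0.243).

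The other Cryab probe, A_51_P504423, went against it on 3 arrays. It had -0.96, -1.51, 2.01, -1.38 and -1.47 on replicates 1 to 5, so that replicate 3 alone lay above 0. The mean was -0.66 ± 1.51 (SD, n = 5; limma adjusted p 0.855), and -0.59 ± 1.73 (SD, n = 4; adjusted p 0.722) without replicate 1. Both probes were designed on the same RefSeq transcript and were above background in both channels on all 5 arrays. Hspb2, which encodes another small heat shock protein and lies within the annotated span of Cryab, had -0.08 ± 1.77 (SD, n = 5; adjusted p 0.983).

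Slc38a2 encodes SNAT2, a sodium-coupled carrier of neutral amino acids, which cells take up early in the response to hypertonicity. Its brightest probe, A_51_P458384, had GFP- intensities of 39464, 127423, 1952, 1970.4 and 785. The GFP+ intensities were 9581, 133123, 116144, 10945 and 7851. The channels were nearly equal on replicate 2, GFP+ was brighter on replicates 3 to 5, and GFP- was brighter on replicate 1. The mean log2 ratio was 1.94 ± 3.05 (SD, n = 5; limma adjusted p 0.812), and 2.94 ± 2.41 (SD, n = 4; adjusted p 0.278) without replicate 1.

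Of the other Slc38a2 probes, the RefSeq probe had a mean above 0, as the brightest did, and both clone probes had means below 0. The other RefSeq probe, A_52_P676686, had -1.73, -0.06, 6.26, 4.34 and -0.76 on replicates 1 to 5, with a mean of 1.61 ± 3.49 (SD, n = 5). It lay below 0 on 3 of 5 arrays, and both high ratios, on replicates 3 and 4, had a GFP- channel that was not above background. Both clone probes lay below 0 on 4 of 5 arrays, with replicate 4 above 0: A_51_P199314 had -1.04 ± 2.03 and A_52_P459046 -0.31 ± 0.74 (SD, n = 5). Adjusted p of these 3 probes was at least 0.823 in limma with all arrays and at least 0.399 without replicate 1. The related genes Slc38a1 and Slc38a4 had 1.17 ± 2.14 and 0.31 ± 1.11, and Slc6a13, a relative of Slc6a12, had -0.76 ± 0.90 (SD, n = 5; limma adjusted p at least 0.819).

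**Figure D2:**
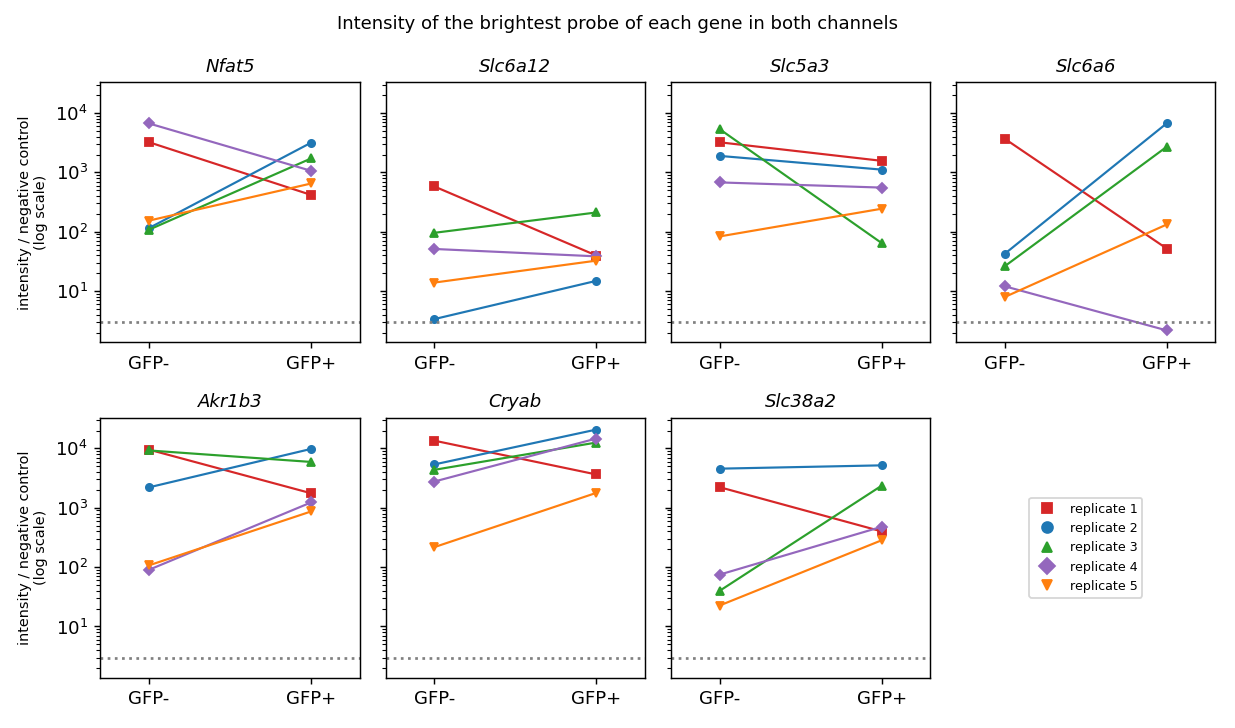
Intensity of the brightest probe of each gene as a multiple of the negative control probe (y axis, log scale) in the GFP- and GFP+ channels, with 1 line per replicate and a dotted line at 3 times the control. The line of replicate 1 falls in all 7 panels. Those of replicates 2, 3, 4 and 5 rise in 6, 5, 3 and 7 panels and fall in the rest.

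Probes of the same gene had the same sign in 64.8% of 125 comparisons (each pair of tested probes of a gene on 1 array) among the 6 genes with more than 1 tested probe. Over the 6217 genes with more than 1 tested probe the share was 54.1%. The share was 5 of 5 for Akr1b3, 4 of 5 for Slc6a6, 20 of 30 for Slc38a2, 48 of 75 for Nfat5, and 2 of 5 for both Slc5a3 and Cryab. The median difference between probes of a gene on 1 array was 1.78 on the log2 scale for the members and 1.74 for all genes.

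**Figure D3:**
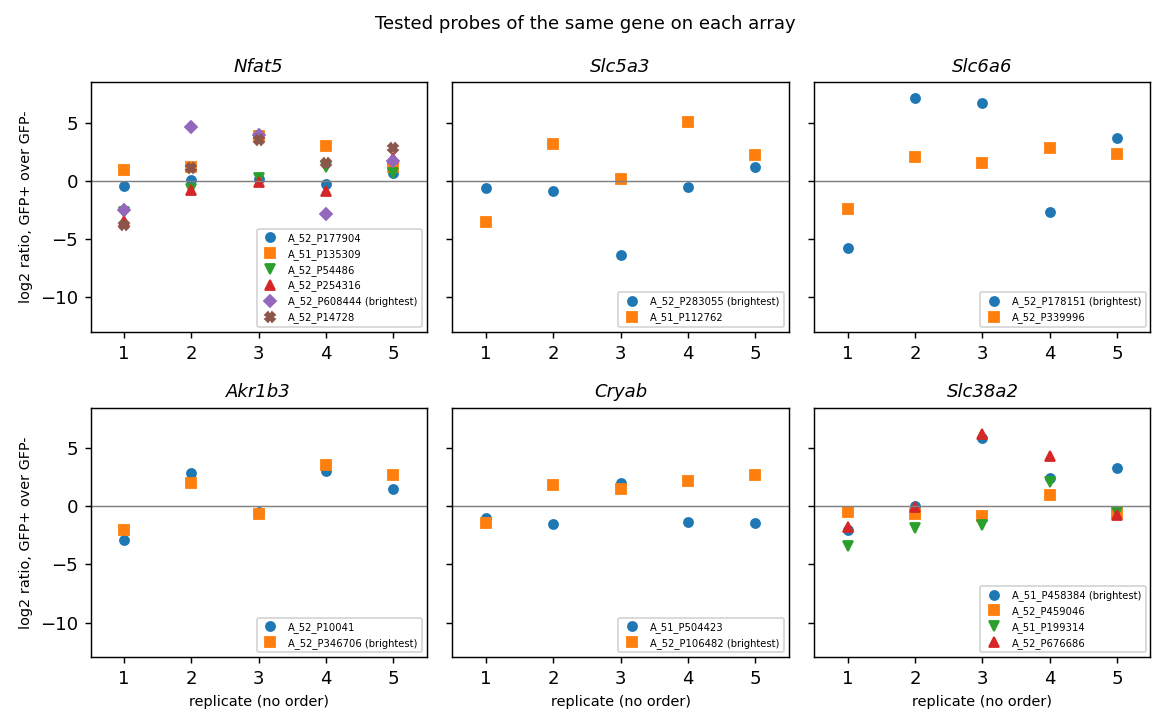
Log2 ratio of GFP+ over GFP- (y axis) of each tested probe on each replicate (x axis) for the 6 genes with more than 1 tested probe. The symbols of Akr1b3 lie together on every replicate, while those of Cryab and Slc5a3 lie on opposite sides of 0 on 3 of 5.

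With the brightest probe standing for each gene, 6 of the 7 genes had means above 0 and Slc5a3 lay below, where 53.6% of all genes lay above 0, and 55.5% without replicate 1. The call rate over 17659 genes was 0% and 0 of 7 were called in limma, with all arrays and without replicate 1. The 6 include Slc6a12, whose mean of 0.0018 turned below 0 under 6 alternatives, and with the mean of all tested probes Slc5a3 stood at 0.011. The median of the 7 means was 1.13, beside 0.08 over all genes, and 1.91 beside 0.17 without replicate 1. It was 0.51 without replicate 2, 0.63 without replicate 3 and 0.55 with the mean of all tested probes. On single arrays the members' median was -2.04 on replicate 1, 2.02 on replicate 2, 1.53 on replicate 3, -0.50 on replicate 4 and 2.69 on replicate 5. These 7 genes were chosen with earlier results of the same arrays known, so their direction is a description.

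The other genes of the pathway had a median log2 ratio of -0.15, and -0.06 without replicate 1. They were 82 genes in 5 lists, of which 76 were tested, and limma called 0 of 76 with all 5 arrays and without replicate 1, at a call rate of 0% over all genes. An unadjusted p under 0.05 was found for 5 of 76, against 6.03% of genes, and for 11 without replicate 1, against 14.6%. Means lay above 0 for 34 of 76, and for 37 without replicate 1.

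Among osmolyte carriers related to the members 4 of 11 lay above 0, and their median was -0.23. Slc44a2, a choline transporter gene, had 1.36 ± 1.16 (SD, n = 5; limma adjusted p 0.81). The creatine transporter gene Slc6a8 had its lowest value, -9.82, on replicate 4 and its highest, 2.76, on replicate 1, and its SD was 6.19 (n = 5; limma adjusted p 0.818). The probes of Slc44a2 and Slc6a8 were above background in GFP- on 3 of 5 arrays each and in GFP+ on 5 and 4. Part of their ratios are therefore against background. Genes of osmolyte synthesis and breakdown had 10 of 16 above 0 and a median of 0.27, among them Csad, an enzyme of taurine synthesis, with 1.90 ± 1.74 (SD, n = 5).

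Genes reported to act upstream of NFAT5 had 10 of 19 above 0 and a median of 0.04. Csnk1a1, the casein kinase 1 alpha gene, lay below 0 on all 5 arrays with -2.03 ± 1.37, and Kpnb1, the nuclear import receptor gene importin beta, above 0 on all 5 with 1.19 ± 0.90 (SD, n = 5; limma adjusted p 0.81 for both). With the mean of its 5 tested probes Csnk1a1 stood at 0.15. The Kpnb1 probe was above background on 2 of 5 arrays in GFP- and on 4 in GFP+, so part of its ratios are against background. Of all genes, 4.81% lay above 0 on all 5 arrays and 3.17% below 0. Of genes outside the members that hypertonicity is known to induce, 6 of 16 were above 0, with a median of -0.14. Among them the water channel gene Aqp1, a thin limb marker, stood at -3.31 on replicate 1 and 4.99, 4.71, 3.41 and 1.97 on the others, and S100a4, a calcium-binding protein gene, had 0.09 and then -1.25, -1.06, -1.06 and -2.13.

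Genes of cell volume control had the lowest median, -1.13, with 4 of 14 above 0. Clcn3, a chloride transporter gene of endosomes, had -1.74 ± 0.85, and Lrrc8e, a subunit of the volume-regulated anion channel, -1.28 ± 0.61 (SD, n = 5; limma adjusted p 0.81 for both). Both lay below 0 on all 5 arrays, as 3.17% of all genes did. Clcn3 and Lrrc8e are the genes of lowest unadjusted p of a list, so the size of their ratios is a description.

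**Figure D4:**
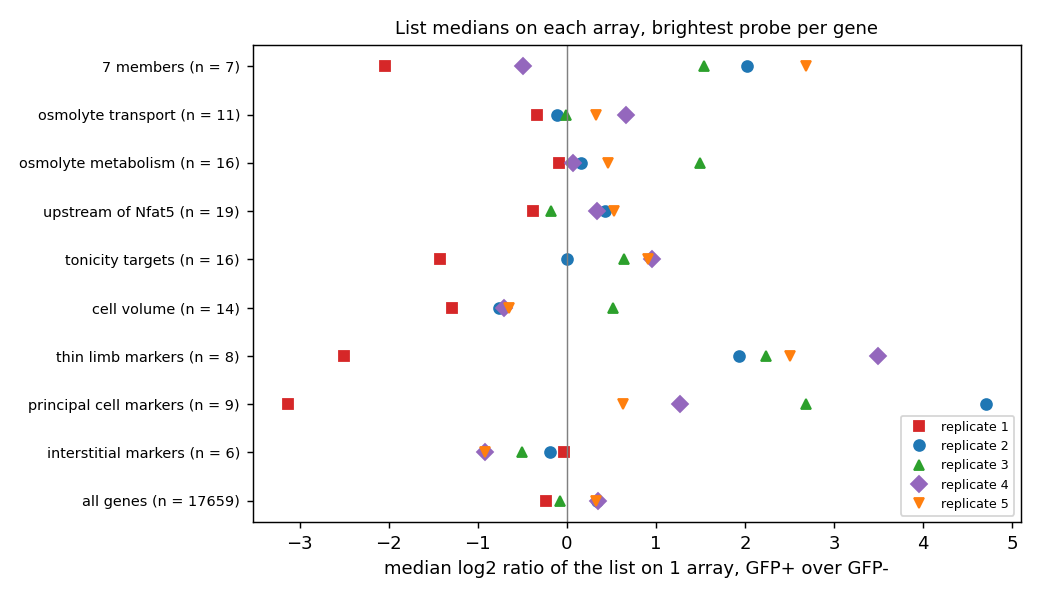
Median log2 ratio of each gene list on each array (x axis), with 1 symbol per replicate and the number of tested genes beside the list name. The members, thin limb and principal cell lists spread from below -2 on replicate 1 to above 2 on another array, while the other pathway lists stay closer to the medians of all genes.

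Marker lists of several tubule cell types also had medians that differed in sign between replicate 1 and other arrays. Counted for each channel by itself, all 8 thin limb markers and 8 of 9 principal cell markers were above background on all 5 arrays. None of either list was undetected. Leaving out Akr1b3 and Cryab, which the thin limb list also holds, its median was -3.15 on replicate 1 and 2.82, 3.82, 3.67 and 2.23 on replicates 2 to 5. Its summed intensity ranged from 23867 to 589598 in GFP- and from 124965 to 632072 in GFP+. On replicate 2 the sum was 589598 in GFP- and 288612 in GFP+, against the sign of the median there. For principal cells the medians were -3.13 and then 4.70, 2.69, 1.27 and 0.63, and the sums 23016 to 698283 and 56152 to 788636. Intercalated cell markers had medians of -2.74 and then 3.52, 1.56, 1.55 and 2.29, with sums of 15086 to 570282 and 84372 to 817318. Of these markers 5 of 7 were above background on all 5 arrays in each channel, again counted for each channel by itself. Thick limb markers, with 4 of 5 so detected, ran the other way, with 1.27 on replicate 1 and -0.76, -2.15, -0.98 and -0.24 on the others. In the interstitial list the medians stayed between -0.92 and -0.03, with 5 of 6 markers above background on all arrays in GFP+ and 4 of 6 in GFP-. The part of these cell types in the members' ratios was not tested, and in sorted populations more cells of a type and more RNA per cell cannot be told apart.

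The genes whose ratios lay nearest to the mean of the 7 members were Spidr, Nod2 and Cdc14b. Their probes were above background in GFP- on 3 of 5 arrays each and in GFP+ on 5, 4 and 4. Part of each profile is therefore a ratio against background. The members' mean was -2.54, 2.41, 1.75, 0.23 and 2.33 on replicates 1 to 5. The root mean square difference from it over the 5 arrays was 0.28 for Spidr, 0.35 for Nod2 and 0.36 for Cdc14b, where the median of 16004 named genes was 2.47 and 266 lay within 1. Among the members, each of which is part of that mean, the nearest was Slc6a12 (0.90) and the farthest Slc5a3 (4.06).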

How the data were processed

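Per the labels' protocols, RNA of sorted cells was amplified by a global PCR procedure (SuperAmp) before Cy3 and Cy5 labelling, which can alter transcript proportions. The labels name no dye swap. Per the submitters' processing notes Agilent Feature Extraction was used, in a version they do not give. The deposited linear intensity of each channel was used without further background or dye correction, and any correction made before is not stated. The authors' series matrix holds deposited log10 ratios, which were turned to log2 as an alternative. The precision is limited by the number of arrays.

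Probes the software had marked were left out (14 to 41 per array). The mean log2 ratio of each probe was compared with 0 (limma 3.58.1 under R 4.3.3, two-sided, Benjamini-Hochberg over all probes or, with the brightest probe per gene, over all genes), a fit checked on simulated data. An array pairs both populations of 1 replicate, so the test is paired by construction. SD is over arrays. Probe names came from the platform annotation (32662 probes), a RefSeq accession (817) or the file's symbol (907). Named genes were all members, 2 per list of lowest unadjusted p, relatives and neighbours, nearest profiles and markers. The members and lists were chosen with earlier results of these data known.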

Additional observations from a re-analysis of the deposited data

Results flagged for a closer look

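An array far from the other 4 was found for 8 of 52 sets of 5 values examined. Chance would give about 1 in 20 for independent sets. These sets share the same 5 arrays, and some are probes of the same gene, so no excess over chance can be read from the count. Among the members, replicate 1 lay apart for Slc6a6 probe A_52_P339996 (-2.44) and Cryab probe A_52_P106482 (-1.46). Replicate 3 lay apart for Slc5a3 probe A_52_P283055 (-6.38) and, above the others, for Cryab probe A_51_P504423 (2.01). Replicate 4 lay apart for Slc38a2 probe A_52_P459046 (0.99). Outside the members, replicate 1 lay apart for Slc38a1 (4.95) and for the intercalated cell marker Slc4a1 (-6.15), and replicate 5 for the leukocyte marker Ptprc (-4.97).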

How the results depend on the processing

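Under all 15 alternatives, planned with earlier results known, limma called 0 member genes and 0 genes of the pathway lists, and 0 member probes under the 14 that apply to probes. The lowest adjusted p of a member probe lay between 0.113 (sign of replicate 1 turned) and 0.994 (no replicate block, a 2-group fit that ignores the pairing). Without the replicate block 0 member probes and 1 pathway gene had an unadjusted p under 0.05, with 917 probes and 596 genes in all, against 1793 and 1065 with it. With replicate 1 turned there were 8 member probes, 9 pathway genes, 5418 probes and 2965 genes. Leaving out 1 replicate gave 1179 to 4659 probes, 722 to 2573 genes, 0 to 6 member probes and 2 to 11 pathway genes, each highest without replicate 1. With the mean of all tested probes there were 2 pathway genes against 5.

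Signs turned as follows, and the cause was not tested. Slc6a12 stood at -0.011 with an offset and loess, -0.034 with median centring, -0.081 with the offset alone, and -0.50 to 0.86 when 1 replicate was left out. Akr1b7 had -0.00050 with the offset and loess. With replicate 1 turned, Nfat5 probes A_52_P54486 and A_52_P254316 had 0.84 and 0.75, Slc38a2 probe A_51_P199314 had 0.31, Hspb2 0.69 and Slc38a1 -0.81. With the mean of all probes Csnk1a1 had 0.15, Hspb2 0.40, Slc14a2 -0.56 and Slc5a3 0.011. Leaving out 1 replicate gave -0.10 to 0.17 for Nfat5 probe A_52_P177904, -1.29 to 0.078 for A_52_P254316, -0.57 to 0.39 for A_52_P54486, -0.0091 to 0.59 for Akr1b7, -0.63 to 2.07 for Aqp2, -0.43 to 0.43 for Hspb2, -2.30 to 0.19 for Mrps6 and -1.27 to 0.37 for Ptprc. Over all 15 alternatives the median of the related carriers ranged from -0.43 to 0.042, of the upstream genes from -0.16 to 0.30 and of the other tonicity-induced genes from -0.52 to 0.030, so that these list medians turned. Those of the 7 members (0.51 to 1.95), of osmolyte synthesis and breakdown (0.13 to 0.64) and of cell volume genes (-1.28 to -0.39) kept their sign. The lowest mean when 1 replicate was left out was 0.52 for Akr1b3 probe A_52_P346706, 1.03 for Cryab probe A_52_P106482 and 0.95 for Slc38a2 probe A_51_P458384. The offset of 50 and loess together shifted the median of all tested probes by -0.11, and the offset alone by -0.03. The other gene and probe values kept their direction.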

Other observations

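The tested member probes were also split by design, on a RefSeq transcript or on a cDNA clone or expressed sequence tag. This grouping was chosen after the values were seen. Of 13 RefSeq probes 11 had means above 0, with a median of 1.27. Of 6 others 2 did, with a median of -0.27. Over all tested probes of either design 55.4% had means above 0, and the share for each design was not counted. The 6 others belonged to Nfat5, Slc5a3 and Slc38a2 only, so probe design and gene cannot be told apart. Without replicate 1 the counts were 12 of 13 and 3 of 6, with medians of 2.07 and -0.05. The difference was not tested, since probes of a gene share their arrays.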
